A study of Mus musculus with 2 samples.

Results

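Tight junction and epithelial barrier genes were followed through the open chromatin of the neonatal mouse urinary bladder. The set held every protein-coding gene of the GENCODE M21 annotation with a claudin symbol (Cldn and a number), which gave 23 genes, and 12 listed partners: Tjp1, Tjp3, Ocln, Marveld2, Marveld3, F11r, Cgn, Cdh1, Epcam, Crb3, Pard3 and Pard6b. These were 35 of 21938 protein-coding genes. They were picked by symbol and by a fixed list and not by a cut on measured values, although earlier results of these data were known. DNase-seq, in which the enzyme DNase I cuts DNA that is free of nucleosomes, was run on bladder tissue of untreated 4-day-old females of the F1 hybrid strain B6CASTF1/J. The 2 biological replicates form a single group. The labels number the females separately and give both 1 donor identifier, so the spread between them may be partly technical. No other condition was sampled, so values are described with their spread and no test between conditions exists.

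Tight junctions close the space between neighbouring epithelial cells. Claudins are the membrane proteins that form the junction strands and set which ions pass, the MARVEL proteins (occludin, tricellulin and MarvelD3) lie in the same strands, and ZO proteins and cingulin tie them to actin. Cell polarity complexes and the adherens junction proteins position the strand near the apical surface. In the bladder the barrier to urine is the urothelium, while the wall also holds smooth muscle, fibroblasts, vessels, nerves and mesothelium, all of which contribute nuclei to a whole-tissue library.

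A gene was counted as open at its promoter when a deposited peak reached within 500 bp of at least 1 of its transcription start sites (TSSs). Peak height is the signal of the longer of the deposited peak lists. The lists held 96518 peaks in replicate 1 and 122870 in replicate 2, with median heights of 0.512 and 0.321. Heights were whole multiples of 0.00466 in replicate 1 and 0.00417 in replicate 2, and 95% intervals below are exact Poisson intervals on those steps, which cover counting error only. Over 53490 shared regions the median log2 ratio of replicate 2 over replicate 1 was -0.28 with an SD of 0.40. Centred ratios below have that median removed. In a whole tissue, fewer cells of a type and less accessible chromatin per cell cannot be told apart.

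Of the 35 genes, 20 (57.1%) were open in both replicates, against 62.3% of all protein-coding genes. Taken singly, replicate 1 had 22 (65.4% of all genes) and replicate 2 had 21 (64.7% of all genes). Replicate 1 alone had 2 (Cldn17 and Crb3; 3.12% of all genes), replicate 2 alone had 1 (Cldn8; 2.40% of all genes), and 12 were open in neither (32.2% of all genes). The set divided by family: 9 of 23 claudins (39.1%) and 11 of 12 listed partners (91.7%) were open in both. In the stricter peak lists 16 genes (45.7%) were open in both, 6 claudins and 10 partners, against 55.0% of all genes. Among the open genes the median height was 1.39 in replicate 1 and 0.926 in replicate 2, below the medians of 2.57 and 1.87 over all open genes. The listed partners had medians of 1.41 and 1.18, and the claudins 0.903 and 0.750. By their mean over replicates, 6 of the 20 lay above the median of all open genes: Cldn12, Tjp3, Cldn1, Cgn, Tjp1 and F11r.

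**Figure D1:**
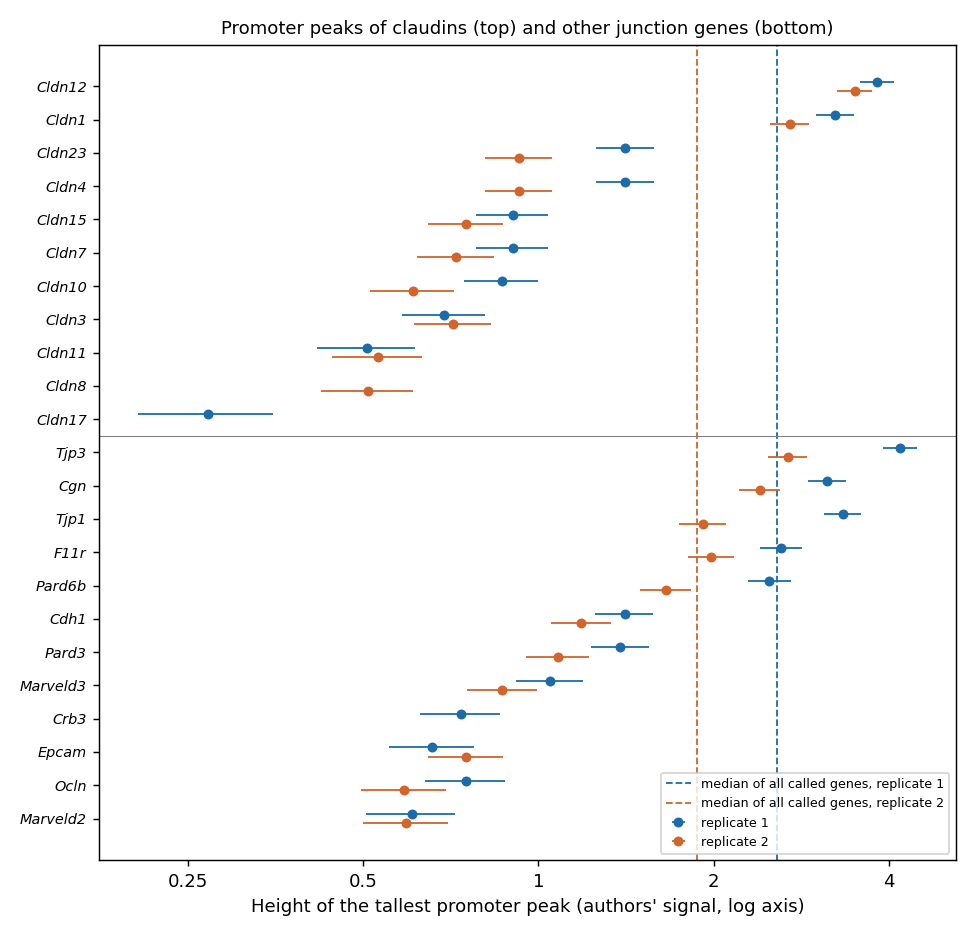
Promoter peak height (authors' signal, log axis) of the junction genes with a peak in at least 1 replicate, claudins above and partners below; points are replicates, bars their exact 95% Poisson intervals and dashed lines the medians of all open genes. Tjp3, Cldn12 and Cldn1 stand highest, and Cldn11 (0.508 and 0.530) lowest among the genes open in both.

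The highest claudin promoter was that of Cldn12, an unusual claudin that lacks the C-terminal motif by which other claudins bind ZO proteins (chromosome 5, 5489537 to 5514958, minus strand, assembly mm10). Its peak was 3.82 high in replicate 1 (3.57 to 4.09) and 3.50 in replicate 2 (3.27 to 3.74), a mean of 3.66 ± 0.230 (SD, n = 2), higher than 76.6% of open promoters. Cldn1, the claudin of the epidermal water barrier (chromosome 16, 26356642 to 26371841, minus strand), measured 3.24 and 2.71, a mean of 2.97 ± 0.378. Replicate 1 was the higher for both genes, and neither pair of heights differed by more than the general offset between the libraries (centred log2 ratios of 0.16 and 0.02). These were the only claudin promoters of the 9 above the median of all open genes.

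The claudins most often named in simple and transitional epithelia had lower peaks. Cldn4 (chromosome 5, 134945119 to 134946934, minus strand) measured 1.41 and 0.926, a mean of 1.17 ± 0.343 (SD, n = 2). Its neighbour Cldn3 (chromosome 5, 134986214 to 134987472, plus strand) measured 0.689 and 0.713, with the peak centre at -448 bp from the TSS. Cldn7 (chromosome 11, 69964779 to 69967885, plus strand) measured 0.903 and 0.721 at a TSS inside the gene record. By mean height they stood at percentiles of 25.0, 11 and 14.5 among open promoters, so most open promoters were higher. In the stricter peak lists Cldn3 kept its peak in replicate 2 alone and Cldn7 in replicate 1 alone, so neither was open in both there.

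The remaining open claudins were of mixed kinds. Cldn23 (chromosome 8, 35824712 to 35826559, minus strand) had the same heights as Cldn4, 1.41 and 0.926, which is a coincidence of step counts at separate loci. Cldn15, a cation pore of the gut (chromosome 5, 136966616 to 136975858, plus strand), measured 0.903 and 0.750 over an intron of the gene. Cldn10, a pore-forming claudin with alternative first exons (chromosome 14, 118787908 to 118875489, plus strand), measured 0.866 and 0.609. Its peak lay at the TSS at 118854732, which is 66.8 kb inside the gene, and at the start of the gene record only replicate 2 had a peak, of 0.117. Cldn11, known from myelin and the testis (chromosome 3, 31149920 to 31164324, plus strand), was the lowest of all at 0.508 and 0.530 and was in neither stricter list. Centred log2 ratios of the open claudins ran from -0.32 to 0.34, within the SD of 0.40 over all shared regions. Against the median of open promoters alone, chosen after seeing the data, the SD was 0.27. There they ran from -0.20 at Cldn4 and Cldn23 to 0.47 at Cldn11, with Cldn3 at 0.46 and Cldn12 at 0.28.

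The 12 genes open in neither replicate were all claudins: Cldn2, Cldn5, Cldn6, Cldn9, Cldn13, Cldn14, Cldn16, Cldn18, Cldn19, Cldn20, Cldn22 and Cldn24. Among them are the paracellular cation channel of leaky epithelia (Cldn2), the main claudin of vessels (Cldn5), the pair that reclaims magnesium in the kidney tubule (Cldn16 and Cldn19) and the claudin of stomach and lung (Cldn18). None of the 12 had a stretch of bases in the deposited false discovery rate lists, which run up to 0.05, within 500 bp of a TSS in either replicate. Over all 7057 genes without a promoter peak, 0.312% had such a stretch in both replicates. The share with one in either replicate is not given here. Such stretches were rare without a peak, so their absence adds little to these calls. Cldn8 had a peak of 0.509 (0.422 to 0.607) in replicate 2, and Cldn17 one of 0.270 (0.205 to 0.349) in replicate 1, which lay in its exon. Of the endothelial marker genes set beside Cldn5, 6 of 11 (54.5%) were open in both replicates, against 62.3% of all genes. Their mean heights ran from 0.478 at Cdh5 to 1.27 at Egfl7.

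The scaffold genes had the highest peaks among the listed partners. Tjp3, which encodes ZO-3 (chromosome 10, 81273207 to 81291581, minus strand), measured 4.19 in replicate 1 (3.92 to 4.47) and 2.69 in replicate 2 (2.48 to 2.90), a mean of 3.44 ± 1.06 (SD, n = 2). Tjp1, which encodes ZO-1 (chromosome 7, 65296165 to 65527781, minus strand), measured 3.33 and 1.92, a mean of 2.63 ± 1.00. Cgn, which encodes cingulin (chromosome 3, 94760069 to 94786492, minus strand), measured 3.14 and 2.40. Replicate 1 was the higher in each of them, and the intervals of the replicates did not overlap. The centred log2 ratios were -0.51 for Tjp1, -0.36 for Tjp3 and -0.10 for Cgn, where the SD over shared regions was 0.40. Set against the median of open promoters alone, a comparison chosen after seeing the data, Tjp1 was at -0.39, and 5.10% of open promoters had a lower ratio. The SD over open promoters was 0.27. Epcam lay further from that median in the other direction, at 0.60, with 97.5% of open promoters lower. So did Cldn11 at 0.47 and Cldn3 at 0.46.

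For both ZO genes the peak was at an internal start site. That of Tjp1 lay at the TSS at 65371239, which is 157 kb into the gene, and at the start of the gene record only replicate 2 had a peak, of 0.429. That of Tjp3 lay at the TSS at 81285781, which is 5.80 kb into the gene, with no peak at the gene start. In all, 6 of the 20 genes owed their call to an internal TSS: Cldn7, Cldn10, Cldn15, Tjp1, Tjp3 and Epcam. With the start of the gene record alone, 14 genes were open in both replicates.

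The MARVEL genes had low peaks. Ocln (chromosome 13, 100496507 to 100552718, minus strand), encoding occludin, measured 0.750 and 0.588. Marveld2 (chromosome 13, 100595957 to 100616971, minus strand), encoding tricellulin of the corners where cells meet, measured 0.605 and 0.592. Marveld3 (chromosome 8, 109947914 to 109962203, minus strand) measured 1.05 and 0.867. The replicates' intervals overlapped for each of them, and their mean heights exceeded 9.80%, 7.48% and 19.0% of open promoters. In the stricter lists Marveld2 had a peak in replicate 1 alone.

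Among the adhesion molecules, F11r, which encodes junctional adhesion molecule A (chromosome 1, 171437535 to 171464603, plus strand), was the highest at 2.61 and 1.98. A noncoding RNA gene, Gm26641, has a start within 500 bp of the F11r peak, and the assay does not assign the peak to either gene. Cdh1, the E-cadherin of adherens junctions (chromosome 8, 106603351 to 106670246, plus strand), measured 1.41 and 1.18. Epcam, an epithelial adhesion molecule that stabilises claudins (chromosome 17, 87635979 to 87651129, plus strand), measured 0.657 and 0.750. It was among the 3 open junction genes, with Cldn3 and Cldn11, that were higher in replicate 2 as deposited. Its centred log2 ratio was 0.48.

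The polarity genes divided. Pard6b, an adaptor of atypical protein kinase C (chromosome 2, 168081004 to 168101203, plus strand), measured 2.50 and 1.66. Pard3, the scaffold that recruits that complex to the forming junction (chromosome 8, 127063893 to 127612286, plus strand), measured 1.38 and 1.08. Crb3, the Crumbs protein of epithelia (chromosome 17, 57059105 to 57065918, plus strand), was open in replicate 1 alone. Its taller peak there, 0.736 (0.625 to 0.860), lay in an exon of the neighbouring protein-coding gene Slc25a23, and a further peak at its internal start sites measured 0.722. Crb3 was thus the only listed partner of the 12 without a peak in both replicates.

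Across the 20 open genes the replicates differed mainly by the offset that separated the libraries in general. Replicate 1 was higher for 17 of 20 as deposited, against 93.1% of all open genes. After centring, 9 of 20 (45%) were higher in replicate 2, against 29.6% of all open genes, and the median centred log2 ratio was -0.05 for the set and -0.13 for all. The centred ratio was within 1 SD of 0 for 18 of 20, against 84.0% of all open genes, a share near that of the set. The other 2 were Tjp1 and Epcam. That SD is the one over all shared regions. Against the median and SD (0.27) of open promoters alone, Epcam, Cldn11, Cldn3, Marveld2 and Cldn12 lay more than 1 SD above and Tjp1 more than 1 SD below. Of 14 urothelial marker genes, 7 were open in each replicate, against 65.4% and 64.7% of all genes. In both replicates 5 were open (35.7%, against 62.3% of all genes). Replicate 1 alone had 2 (Upk2, 0.806, and Foxa1, 0.666), against 3.12% of all genes. Replicate 2 alone had 2 (Krt5, 0.509, and Krt8, 0.613), against 2.40%. None of the 14 was open in the stricter lists of both, against 55.0% of all genes. The 5 open in both were Upk1b, Upk3a, Krt7, Krt18 and Gata3. They measured 0.754 to 0.996 in replicate 1 and 0.525 to 0.609 in replicate 2, and all 5 were lower in replicate 2 after centring (median -0.53). Upk1a, Krt14, Krt20, Psca and Sprr2a1 had no promoter peak in either, where 32.2% of all genes had none. The part of urothelial content in the junction gene heights was not tested.

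**Figure D2:**
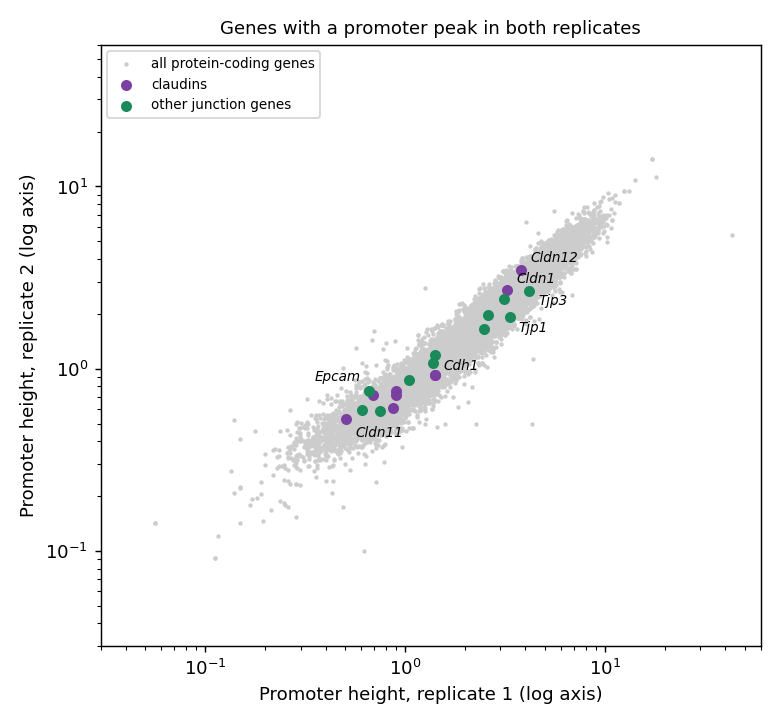
Promoter height in replicate 2 against replicate 1 (log axes) for open promoters, with all protein-coding genes in grey, claudins and other junction genes in colour and some of them named. The junction genes lie within the band of the rest, Tjp1 near its lower edge (3.33 and 1.92) and Epcam near its upper edge (0.657 and 0.750).

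Whole-tissue marker lists gave the surroundings of these values. Promoters were open in both replicates for 8 of 9 smooth muscle genes (88.9%) and 7 of 8 fibroblast genes (87.5%). The counts were 4 of 6 for mesothelial genes, 4 of 6 for Schwann cell and perineurial genes (66.7% each) and 2 of 6 for leukocyte genes (33.3%). Over all genes the share was 62.3%, near the mesothelial and Schwann cell shares. None of 4 hepatocyte, 4 gut and pancreas or 3 kidney tubule markers was open in either replicate, where 32.2% of all genes were open in neither.

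Base composition ran in parallel with the family split. The ratio of observed to expected CpG dinucleotides was taken in the 1001 bp around the start of the gene record. Its median was 0.380 in claudins, 0.698 in the listed partners and 0.552 in all genes. For genes open at an internal TSS it therefore does not describe the open promoter. Of these, Cldn7, Cldn10, Cldn15, Tjp3 and Epcam fell below 0.5, and Tjp1 above. Below a ratio of 0.5, 7 of 20 junction genes (35%) were open in both replicates, and 5 of the 17 claudins among them, against 27.1% of all such genes. At or above 0.5, 13 of 15 (86.7%) were open, including 4 of 6 claudins, against 92.9% of all such genes. The closed genes in that class were Cldn5, with a ratio of 0.508, and Cldn6, with 0.571. Within these classes, set by the start of the gene record, the shares of the set were thus close to those of all genes. The part of composition in the difference between claudins and partners was not tested.

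Footprints are short stretches inside a peak that the deposited lists mark as protected from cutting. All 20 promoter peaks held a footprint in replicate 1 and 18 did in replicate 2, against 98.1% and 96.8% of all open promoters. The exceptions in replicate 2 were Cldn11 and Marveld2. The median number per peak was 3.5 and 3 in the set, and 4 and 3 over all open genes. The counts of single genes differed with the width of the peak searched: Pard6b had 8 footprints in a peak of 500 bp in replicate 1 and 1 in a peak of 60 bp in replicate 2, and Cldn7 had 6 in 460 bp and 1 in 180 bp. The peaks of Cldn11 and Marveld2 were narrower in replicate 2 as well (240 and 176 bp, 546 and 291 bp), so these counts do not compare the same bases.

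The 4 highest promoter peaks by mean are shown because they carry the strongest signal of the set. The letters are reference mm10 sequence (assembly GRCm38.p6), not the castaneus-derived allele of the hybrid. Each runs 5′ to 3′ on the strand of its gene, trimmed to bases outside annotated exons, and capitals mark matches of the motifs searched. These are Cldn12 at chr5:5514959-5515035, Tjp3 at chr10:81285796-81285995, Cldn1 at chr16:26371842-26371980 and Cgn at chr3:94786493-94786670, all on the minus strand.
Cldn12: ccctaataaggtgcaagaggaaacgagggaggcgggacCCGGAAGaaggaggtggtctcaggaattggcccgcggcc
Tjp3: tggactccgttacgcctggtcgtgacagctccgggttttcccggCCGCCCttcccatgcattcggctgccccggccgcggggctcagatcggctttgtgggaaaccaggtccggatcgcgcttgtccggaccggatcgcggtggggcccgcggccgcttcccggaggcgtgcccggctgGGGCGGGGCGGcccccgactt
Cldn1: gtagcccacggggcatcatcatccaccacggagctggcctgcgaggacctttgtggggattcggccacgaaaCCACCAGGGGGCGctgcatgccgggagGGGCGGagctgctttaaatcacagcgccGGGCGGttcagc
Cgn: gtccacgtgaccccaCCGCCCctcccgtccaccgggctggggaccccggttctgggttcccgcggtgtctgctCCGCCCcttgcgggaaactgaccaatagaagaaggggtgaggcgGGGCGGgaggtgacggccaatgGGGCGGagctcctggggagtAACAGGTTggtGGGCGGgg

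In these promoters the capitals of Tjp3 are KLF/SP boxes, of which the last pair shares a base, and those of Cldn12 an ETS motif. Cldn1 holds a CTCF core motif that overlapped a footprint in both replicates, and 0.636% of all open promoters hold that motif. Cgn holds 5 KLF/SP boxes and AACNGGTT, a relaxed form of the Grainyhead-like (GRHL) motif that 0.863% of open promoters hold. That match overlapped a footprint in replicate 2 alone. A match is a description of letters and not a site of binding.

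Altogether 17 motifs were searched on both strands in the 200 bp centred on each promoter peak, with overlapping matches each counted. The widest gap to the background in percent was that of CAGGTG, the E-box bound by SNAI and ZEB repressors. It was singled out after the values were seen, so its share is a description. It occurred at 12 of 20 open junction promoters (60%), against 10.8% of all open promoters. Matches numbered 3 at Cldn7, Marveld3 and Cdh1, 2 at Cldn4 and Ocln, and 1 at Cldn3, Cldn11, Cldn23, Marveld2, F11r, Pard3 and Pard6b. The 5 genes with at least 2 matches made up 25% of the set, against 1.02% of all open promoters. No match was found at Cldn1, Cldn10, Cldn12, Cldn15, Tjp1, Tjp3, Cgn or Epcam, a list that holds 5 of the 6 highest promoters.

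The sequences at Cdh1 (chr8:106603271-106603350, plus strand), Marveld3 (chr8:109962204-109962310, minus strand) and Cldn4 (chr5:134946935-134947100, minus strand) show how these boxes lie. They were chosen after the counts were seen, from the genes with at least 2 matches, and are again reference mm10 sequence outside annotated exons, so matches inside exons are not printed.
Cdh1: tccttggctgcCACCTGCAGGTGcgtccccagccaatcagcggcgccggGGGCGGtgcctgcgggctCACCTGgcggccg
Marveld3: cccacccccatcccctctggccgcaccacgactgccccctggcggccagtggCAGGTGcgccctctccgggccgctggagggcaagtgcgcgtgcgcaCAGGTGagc
Cldn4: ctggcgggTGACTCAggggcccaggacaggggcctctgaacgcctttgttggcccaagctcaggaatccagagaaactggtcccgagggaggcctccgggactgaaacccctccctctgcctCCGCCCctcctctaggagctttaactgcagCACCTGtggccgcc

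At Cdh1 a pair of E-boxes abuts as inverted copies, at 106603282 to 106603287 and 106603288 to 106603293, and a further box lies at 106603338 to 106603343, just before the TSS at 106603351. A KLF/SP box lies between them, and it overlapped a footprint in both replicates while none of the 3 E-boxes did in either. Marveld3 has 2 boxes upstream of its TSS, neither in a footprint, and a further match inside the gene at 109962172 to 109962177 that overlapped a footprint in both. Cldn4 has, besides an E-box, an AP-1 motif (TGANTCA) and a KLF/SP box.

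Few of the E-boxes lay in footprints. The median peak of the set was lower than that of all open promoters, and the shares below were not compared at equal height. Of 20 matches in the set, 2 (10%) overlapped a footprint in each replicate, against 25.3% and 20.1% of the 1637 matches over all open promoters. Those were at Cldn7 and Marveld3 in replicate 1, and at Marveld3 and F11r in replicate 2. The KLF/SP box GGGCGG occurred at 18 of 20 junction promoters (90%), against 63.4%, and 20 of its 36 matches (55.6%) overlapped a footprint in replicate 1 and 11 (30.6%) in replicate 2, against 66.8% and 55.8%.

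The E-box share was higher than that of all promoters at each width tried. It was 6 of 20 (30%) against 5.25% in 100 bp, and 15 of 20 (75%) against 23.5% in 400 bp. By the CpG ratio at the start of the gene record, it was 2 of 7 below 0.5, against 14.2%. At or above 0.5 it was 10 of 13, against 9.90%. Split at the set's median height of 1.17, it was 8 of 11 at or below, against 16.3%, and 4 of 9 above, against 8.92%. In RefSeq promoters (300 bp at the gene start, matched for 29 of 35 genes, build GRCm38.p6), 13 of 29 (44.8%) held it against 22.2% of all. These were 10 of 17 for the genes open in both replicates and 3 of 12 for the others. In distal regions of the set 15 of 71 (21.1%) held it, close to the 18.7% of all such regions.

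**Figure D3:**
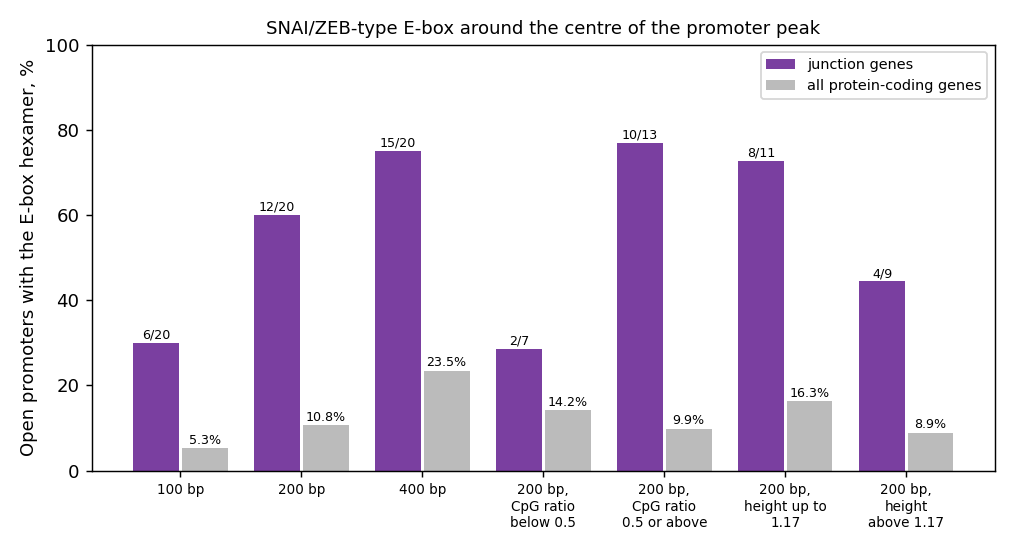
Percent of open promoters with the SNAI/ZEB-type E-box in windows of 3 widths, and in the 200 bp window by CpG ratio and by peak height; bars are junction genes and all protein-coding genes, with counts printed above. In the 200 bp window the junction genes reach 60% and all genes 10.8%.

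The genes of SNAI and ZEB factors, which can bind CAGGTG, were open in both replicates, as were 62.3% of all genes. Binding was not measured. The promoters of the repressors measured 3.25 and 3.21 at Snai1, 1.78 and 1.32 at Snai2, 1.40 and 1.42 at Zeb1 and 1.01 and 0.905 at Zeb2. Of the epithelial activators, Grhl1 measured 3.26 and 2.17, and Grhl2 0.959 and 0.755. Repressor and activator genes were thus open in the same libraries of mixed tissue, in which the cells carrying each cannot be told apart. The full GRHL motif AACCGGTT was in none of the 20 junction promoters and none of the 71 distal regions, against 0.176% and 0.105% of all.

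Other motifs were found at few members. At promoters AP-1 matched 2 of 20 (10%, against 2.39%), ETS (CCGGAAG) 2 of 20 (10%, against 15.7%), and TEAD (GGAATG) 1 of 20 (5%, against 6.58%). At distal regions AP-1 matched 10 of 71 (14.1%, against 7.74%), the motif AGATAA of GATA factors 8 of 71 (11.3%, against 5.88%) and TEAD 11 of 71 (15.5%, against 12.1%). No junction promoter held AGATAA, the FOX motif TGTTTAC, or the longer motifs of NRF1, YY1, NFI, HNF1, SRF, PPAR-RXR and p63. Each of these was in at most 2.03% of all open promoters.

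Distal regions were shared peaks centred more than 1000 bp from any TSS and given to whichever protein-coding gene starts closest, up to 100 kb away. The set received 71, over 19 of 35 genes (54.3%), where 43.7% of all genes had at least 1. Claudins had 34 over 11 genes, and listed partners 37 over 8 genes. In all, 39 lay in introns, 28 between genes and 4 in exons, and 26 lay upstream of the TSS. These shares were not taken over all distal regions, so the counts are description only. They include the 19 regions of Cldn22, all downstream and all in introns or exons of another gene, Wwc2. Their median heights, 0.694 and 0.625, were near those of all distal regions, 0.703 and 0.621, and a footprint was present in 62 and 60 of them (87.3% and 84.5%), against 85.1% and 83.8% of all. Their median distance was 27.2 kb against 14.2 kb. Cldn22 supplied 19 of the 71; without it the 52 others had a median distance of 19.2 kb and median heights of 0.847 and 0.694.

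**Figure D4:**
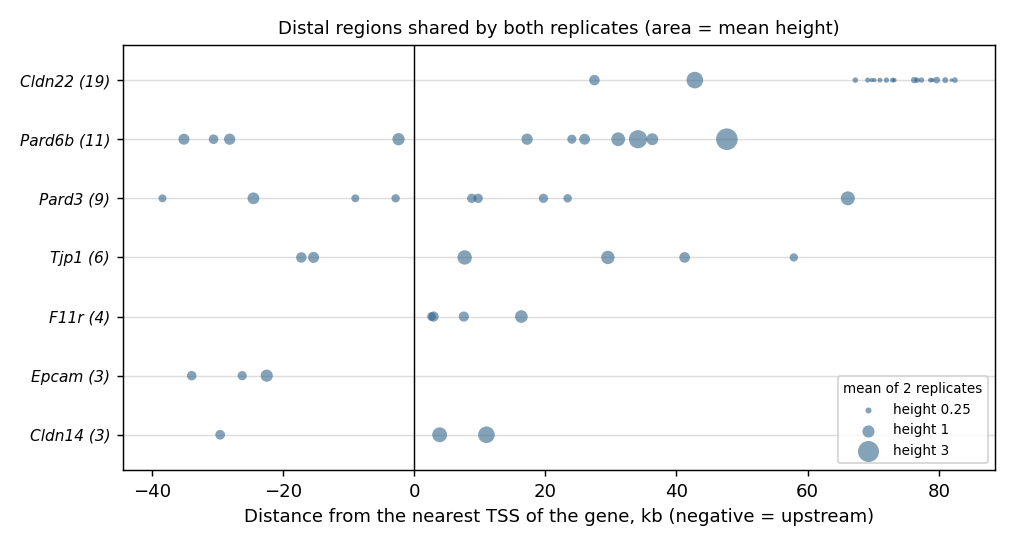
Position of the shared distal regions along 7 junction genes (distance from the nearest TSS in kb, negative is upstream; area of a point is mean height; number of regions in brackets). The tallest lies 47.7 kb downstream of Pard6b, and 17 low regions of Cldn22 crowd together beyond 60 kb.

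Pard6b had 11 shared distal regions, 7 of them downstream between genes or within it and 4 upstream. The tallest lay 47.7 kb downstream of its TSS, between genes (chromosome 2, 168128581 to 168128780), and measured 4.16 and 2.18, a mean of 3.17 ± 1.40 (SD, n = 2). A second, 34.1 kb downstream (168115021 to 168115240), measured 2.85 and 1.65. The tallest distal region exceeded the Pard6b promoter itself, 2.50 and 1.66, in both replicates. All 11 were lower in replicate 2 after centring, with log2 ratios from -0.66 to -0.02. The next nearest gene of both regions was Adnp, and the nearest start is a rule of distance that links no region to a gene.

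These 2 regions are shown as the tallest distal elements of the set, in reference mm10 letters on the plus strand at chr2:168128586-168128785 and chr2:168115036-168115235, with motif matches in capitals.
Pard6b +47.7 kb: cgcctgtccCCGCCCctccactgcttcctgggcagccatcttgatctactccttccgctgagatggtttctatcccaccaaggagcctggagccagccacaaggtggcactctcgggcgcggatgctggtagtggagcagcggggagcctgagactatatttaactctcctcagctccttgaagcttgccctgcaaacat
Pard6b +34.1 kb: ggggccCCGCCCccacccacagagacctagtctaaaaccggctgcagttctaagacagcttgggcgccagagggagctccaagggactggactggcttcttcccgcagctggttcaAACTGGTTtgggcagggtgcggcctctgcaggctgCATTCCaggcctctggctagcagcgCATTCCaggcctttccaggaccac

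The taller holds a KLF/SP box. The second holds a KLF/SP box that overlapped a footprint in both replicates, the relaxed GRHL motif AACNGGTT in a footprint of replicate 1 alone, and 2 TEAD motifs outside footprints. The relaxed GRHL motif was in 2 of 71 distal regions of the set, both of Pard6b, against 1.63% of all distal regions.

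The other partners with several regions had lower ones, and their number depended on the lists. In the stricter lists of both replicates Pard6b had 5 regions, Pard3 and Tjp1 had 3 each and F11r and Epcam had 1 each, and replicate 2 alone had 29 distal peaks of Tjp1 and 18 of Pard3, where replicate 1 had 10 and 12. In the looser lists Pard3 had 9, the tallest in an intron 66.1 kb from the nearest of its TSSs (chromosome 8, 127139281 to 127139440; 1.44 and 1.21) and the next at 127331821 to 127332040 (0.992 and 0.901). Tjp1 had 6, all in its introns, led by one 7.72 kb inside the gene (chromosome 7, 65519881 to 65520080), with 1.41 in each replicate. The next Tjp1 region (65498061 to 65498260) measured 1.50 and 0.942. F11r had 4, led by one downstream between genes (chromosome 1, 171479101 to 171479300; 1.25 and 0.938) and one in its intron (171440461 to 171440651; 0.750 and 0.667). Epcam had 3, all upstream, led by one 22.5 kb away (chromosome 17, 87613421 to 87613640; 1.10 and 0.913), with another at 87602026 to 87602147 (0.587 and 0.655).

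Cldn14, a claudin of the inner ear and kidney with no promoter peak, had 3 distal regions, tying with Epcam for the sixth place. One between genes 11 kb downstream (chromosome 16, 93918421 to 93918640) measured 2.22 and 1.54, and one in its intron (93938381 to 93938560) measured 1.67 and 1.34. The former lies 13.8 kb from the start of Chaf1b. Closed promoters could thus stand beside tall distal peaks, and Cldn13, also closed, had one of 1.41 and 1.09 located 2.73 kb upstream.

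Between Cldn4 and Cldn3, which lie side by side on chromosome 5, was a region at 134965581 to 134965820 that measured 1.27 and 1.16. It was named after its values were seen, as it lies almost midway, 18.8 kb from the Cldn4 start and 20.5 kb from that of Cldn3. It was taller than both promoters in replicate 2 (0.926 and 0.713) and lay between them in replicate 1 (1.41 and 0.689). Cdh1 had a single region, in an intron 15.6 kb from its start (chromosome 8, 106619641 to 106619920), of 0.838 and 0.655. It held an AP-1 motif and a KLF/SP box that each overlapped a footprint in both replicates. The other genes had 1 or 2 regions each, and Cldn2, Cldn3, Cldn7, Ocln, Marveld2, Cgn and Crb3 were among those with none.

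Cldn22, which had no promoter peak (chromosome 8, 47824482 to 47825476, plus strand), led the count with 19. Its tallest measured 2.27 and 1.49 in an intron of the gene Wwc2 (47867181 to 47867380), 42.8 kb away, and the next 0.745 and 0.763 in an exon of Wwc2 (47851900 to 47852044). The other 17 lay in Wwc2 at mean heights of 0.306 or less. Assigned by the nearest gene body instead of the nearest start, none of the 19 belonged to Cldn22.

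Those low regions were part of a run of close peaks. Where distal peaks of a gene followed each other at gaps of 5 kb or less, runs of at least 10 peaks occurred beside 1 junction gene in replicate 1, against 3.54% of all genes, and beside 5 in replicate 2, against 5.72%. The Cldn22 run held 23 peaks over 15.7 kb in replicate 1, 18 of them overlapping a peak of replicate 2, and 26 in replicate 2, 19 of them overlapping a peak of replicate 1. The other runs were seen in replicate 2 alone. Cldn10 had 35 peaks over 23.5 kb just upstream of its gene, 1 overlapping a peak of replicate 1. Marveld3 had 30 over 22.1 kb across its gene, 1 overlapping. Tjp1 had 16 over 7.42 kb and Cldn18 had 12 over 7.08 kb, with 0 overlapping. Only the longest run of each gene is given. Cldn10 had a further group of close peaks in replicate 2, at -40.7 to -30.7 kb from its nearest TSS.

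The peaks in these runs were low, with median heights of 0.140 to 0.173 against 0.391 and 0.238 for all assigned distal peaks of replicates 1 and 2. They made up most of the difference between the replicates in distal peaks near the set, 109 in replicate 1 and 236 in replicate 2. Cldn10 had 1 distal peak in replicate 1 and 53 in replicate 2, Marveld3 had 3 and 30, and Cldn18 had 1 and 19. At the Marveld3 promoter the lowest listed false discovery rate was 2.26e-06 in replicate 1 and 7.66e-41 in replicate 2, although its height was 1.05 and 0.867. Replicate 2 also had the larger peak list and the lower median height, and the part of that library in these runs was not tested.

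**Figure D5:**
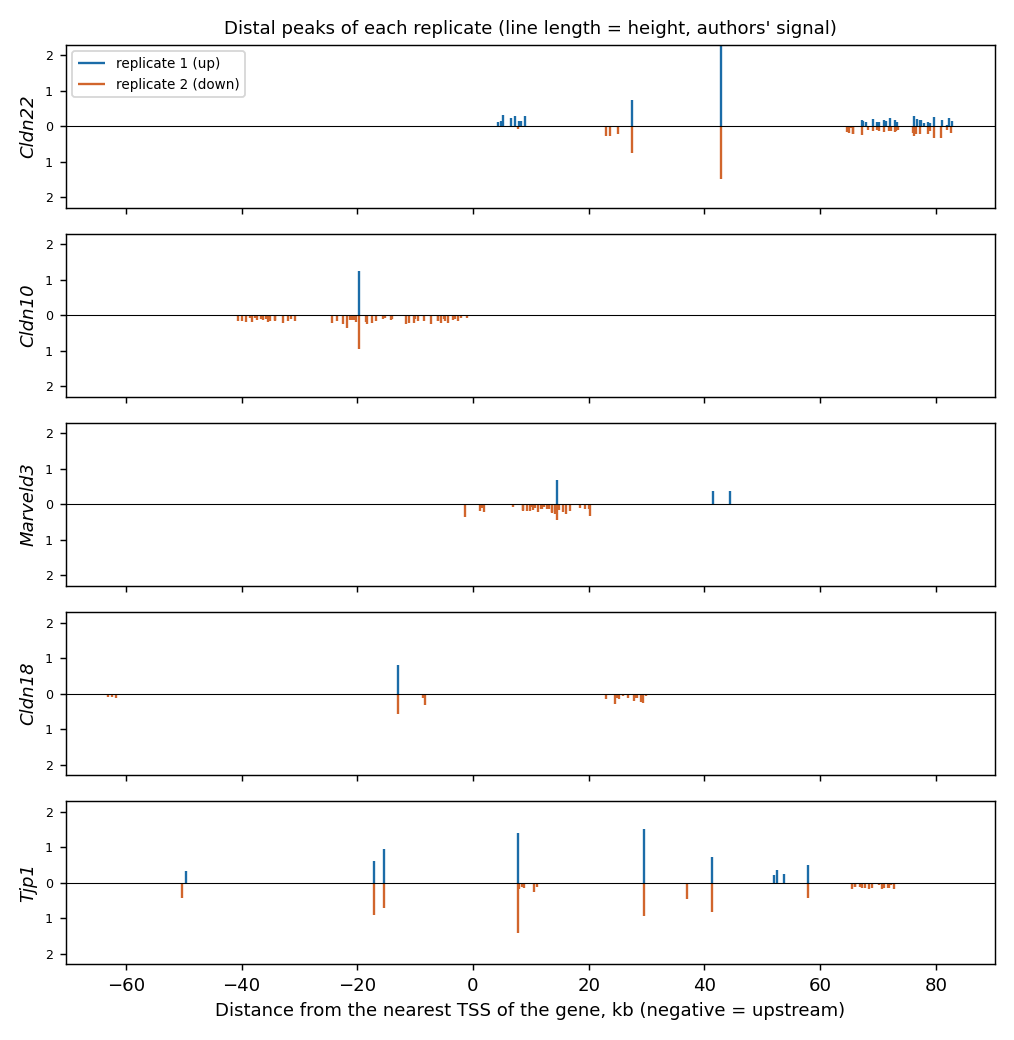
Distal peaks of both replicates along the junction genes with a run of at least 10 close peaks in either replicate (distance from the nearest TSS in kb, negative is upstream; line length is height as signal, replicate 1 up and replicate 2 down). The run near Cldn22 appears in both replicates, and those near Cldn10, Marveld3, Tjp1 and Cldn18 in replicate 2.

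The wider junction machinery was mostly open. Of 30 other tight junction and polarity genes, 28 (93.3%) were open in both replicates, the exceptions being the Crumbs genes Crb1 and Crb2, against 62.3% of all genes. The highest were Arhgap17, a regulator of junctional Cdc42 (5.21 and 3.60), the scaffold gene Magi3 (4.16 and 3.68) and Pard6a, a relative of Pard6b (4.52 and 3.29). Of 19 desmosome and adherens junction genes, 17 (89.5%) were open in both, against the same 62.3%. They were led by the plakoglobin gene Jup (7.56 and 5.83), the adhesion gene Nectin2 (5.68 and 4.06) and the β-catenin gene Ctnnb1 (5.02 and 3.82). The desmosomal plaque gene Pkp1 was open in replicate 2 alone (0.434), and Pkp3 in neither.

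Of 25 genes that regulate epithelial junctions, 22 (88%) were open in both replicates, against 62.3% of all genes. The highest means were those of Snai1 (3.23 ± 0.0281), Klf4 (3.20 ± 0.343; 3.45 and 2.96), a factor of surface epithelia, and Grhl1 (2.72 ± 0.769; all SD, n = 2). Foxa1 was open in replicate 1 alone (0.666), and Ehf and Trp63, the latter a factor of basal epithelial cells, in neither. All 3 lists had a higher open share than the claudins (39.1%), and the median CpG ratios of the lists were 0.732, 0.616 and 0.747 against 0.380 in claudins. Of all genes with a ratio at or above 0.5, 92.9% were open in both replicates. The lists were not split by this ratio, and the part of composition in their shares was not tested.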

How the data were processed

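DNase-seq peaks, false discovery rates and footprints of 2 bladder libraries were taken as deposited, in mm10 positions per the labels. The peak height is the signal the authors deposited. The p-value columns the authors deposited hold false discovery rates (up to 0.05) in the rate lists and 0.01 throughout in the footprint lists, so footprints could not be ranked. Each sample's files were made from its own alignments per the file descriptions. Aligner, caller, versions, thresholds and total read depth were not given in the sources used here. Heights were whole multiples of 1 step within a tolerance of 0.02 steps for 100% of peaks. The steps make replicate 2 1.12 times as deep if both were scaled to the same total.

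Peaks overlapping by at least 1 bp were merged into shared regions. Gene starts came from GENCODE M21, sequence from GRCm38.p6 and promoter tables from RefSeq. Python 3.11.15, numpy 2.4.6, pandas 2.3.3, scipy 1.17.1 and matplotlib 3.10.9 were used, and counts were tested on simulated data. Every gene of the set was named by its call, with values where open in both replicates. Distal regions were named for the 6 genes with most (7 with a tie), the 2 tallest each. For the other lists the 3 tallest promoters were named. The genes, lists and motifs were chosen with earlier results of these data known. Alternatives were other windows, lists, distances, gene starts and leaving out a replicate.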

Additional observations from a re-analysis of the deposited data

How the results depend on the processing

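The number of junction genes open in both replicates (20) ranged from 14 to 22 over the alternatives, claudins (9) from 6 to 10 and listed partners (11) from 8 to 12. Leaving out a replicate means using the other alone: the number of distal regions of the set (71) was then 109 to 236. It was 40 with the stricter peak lists. The median height of open junction genes (1.17) was 1.63 when all promoter peaks of a gene were summed, and 0.926 to 1.26 otherwise. Summing raised 12 of 20 single heights by more than 1 SD between replicates. The stricter lists lost Cldn3, Cldn7, Cldn11 and Marveld2, a 250 bp window lost Cldn3 and Pard6b, and peaks at or above the median height lost Cldn11. With a limit of 50 kb or the nearest gene body, Cldn22, with 2 and 0 regions, was the only one of 7 genes whose count changed by over 1.5 times, and smaller changes were seen at others (Pard3 8 and 12). Windows of 100 and 400 bp, runs with gaps of 2 and 10 kb and the count without Cldn22 were chosen after seeing the data, and the number of junction genes with a run stayed at 5 at each gap. Read depth is not given, so precision rests on the steps of the heights. No paired analysis was possible because the replicates form a single group.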
